A study of Mus musculus with 23 samples.

Results

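Mouse lung epithelial cells that had just been isolated were compared with the same kind of cells on the day of airlift, the day on which the medium above a cultured layer is removed so that its upper face meets air. The comparison took every library labelled with either day: 3 libraries of the day of isolation, 1 in each of experiments A, B and C, and 6 libraries of the day of airlift, 2 in each experiment, which makes 9 of the 23 libraries of the series. The cells of all 9 were EpCAM-positive lung cells of wild-type C57BL/6 mice, called C57BL/6J in the series' design text, that had received no bacteria and carry the treatment label of an untreated control. After isolation the cells were grown in transwells, inserts with a porous floor, for an air-liquid interface culture. The other 14 libraries are day 4 cultures with or without non-typeable Haemophilus influenzae (NTHi), 7 of each, and were not used here except in alternative fits. The labels do not give the age or sex of the mice, the number of mice pooled, the culture medium or the time between isolation and airlift. Nothing in the labels says that the libraries of a group came from different mice or wells. The p-values therefore reflect library-to-library spread, which may be technical.

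EpCAM is a surface protein of epithelial cells, and sorting for it takes cells of the alveoli as well as of the airways. Alveolar type 2 cells make surfactant, the lipid and protein film that keeps alveoli open, and can give rise to the flat alveolar type 1 cells. In the airways, club cells secrete secretoglobins and hold detoxifying enzymes, multiciliated cells move mucus, and basal cells act as stem cells. Epithelial cells freed with enzymes lose their neighbours and their basement membrane, attach to the insert through integrins and spread before they are lifted to air.

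Levels are normalised read counts, written CPM: counts relative to a library total that was adjusted by a scaling factor. They are given for the 3 isolation libraries in the order A, B and C, and as lowest, highest and median of the 6 airlift libraries. A change is a log2 fold change, airlift minus isolation with experiment as a block, with its standard error after the ± sign, so that 1 means a doubling. A gene is said to have risen or fallen where edgeR's quasi-likelihood test gave a Benjamini-Hochberg adjusted p below 0.05 over all genes tested. Values of a gene serve to compare libraries and not genes, because CPM are not divided by gene length.

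The libraries held between 32323375 and 38302304 counts. The 10 genes with most counts took 23.44% to 23.9% of an isolation library and 7.72% to 8.64% of an airlift library, and the scaling factors were 0.781 to 0.816 at isolation and 1.11 to 1.132 at airlift. The label "Airway epithelial cells" was checked against marker lists: surfactant and other alveolar type 2 genes took 8.26% to 10.6% of a library's counts at isolation and 0.444% to 0.487% at airlift, so the isolation libraries held alveolar as well as airway transcripts. The 15 club and secretory genes took 13% to 15.2% of a library's counts at isolation and 2.26% to 3.03% at airlift.

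Of 17739 genes tested, 13810 (77.9%) passed the test, 6967 (39.3%) higher and 6843 (38.6%) lower at airlift. Because so many genes passed, counts of genes that changed at least 2-fold are also given: 2588 genes (14.6%) rose and 3760 genes (21.2%) fell by that much. The groups did not overlap, meaning that every airlift library lay on the same side of every isolation library, for 12114 genes (68.3%), with airlift above for 6223 (35.1%) and below for 5891 (33.2%). The median change of all genes was 0.002 and the middle 50% of genes lay between -0.82 and 0.63. The direction of 13587 called genes (98.4%) was the same in the 3 experiments. With library totals alone in place of the scaling, the median of all genes moved to 0.49 and the split of calls to 10164 higher and 4299 lower, so a small fall takes the opposite sign under that scaling.

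The plot of 16 genes by library shows secretory and surfactant products beside matrix receptors and glycolytic enzymes.

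**Figure D1:**
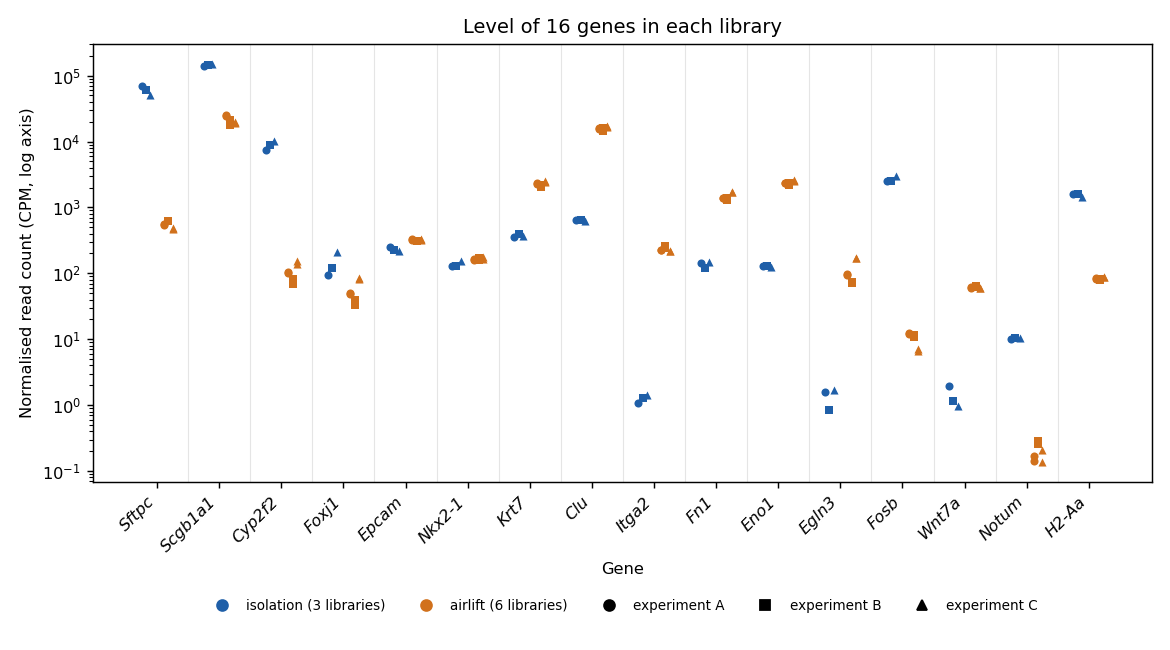
Normalised read count (CPM, log axis) of 16 genes in each library; blue points are the 3 isolation libraries, orange points the 6 airlift libraries, and the marker shape gives the experiment. Sftpc and Fosb lie far lower at airlift and Itga2 and Clu far higher, while Epcam and Nkx2-1 differ little.

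The largest rise among genes with at least 50 CPM in the higher group was that of Itga2, the collagen-binding integrin alpha 2 chain. It measured 1.07, 1.27 and 1.44 CPM at isolation and 221 to 256 CPM (median 224) at airlift, and rose by 7.51 ± 0.09. Arg1, arginase 1 of the urea cycle, measured 4.78, 4.79 and 6.22 CPM at isolation and 484 to 568 CPM (median 528) at airlift, and rose by 6.65 ± 0.09. Both genes were at a few CPM in every isolation library and far above that in every airlift library. The other genes of the 10 largest rises were Psca, a surface protein of many epithelia (6.51 ± 0.10), Egln3, an oxygen-sensing prolyl hydroxylase (6.35 ± 0.11), Syt8, a synaptotagmin (6.23 ± 0.18), Ctse, the protease cathepsin E (6.02 ± 0.10), Ak4, a mitochondrial adenylate kinase (5.85 ± 0.11), Tenm4, a teneurin (5.66 ± 0.15), Wnt7a, a Wnt ligand (5.51 ± 0.13), and Lox, which crosslinks collagen (5.33 ± 0.11).

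The deepest fall was that of Clca1, a secreted product of goblet cells. It measured 64.1, 72 and 88.8 CPM at isolation and 0.0938 to 0.306 CPM (median 0.143) at airlift, and fell by 8.80 ± 0.13. Scgb3a2, a secretoglobin of the airway, measured 1473, 1855 and 2364 CPM at isolation and 4.51 to 13.8 CPM (median 5.37) at airlift, and fell by 8.11 ± 0.20. Others of the 10 deepest falls were Fosb, an AP-1 transcription factor (-8.10 ± 0.23), Hc, which encodes complement C5 (-7.57 ± 0.12), Sftpa1, a surfactant protein (-7.49 ± 0.07), the complement gene C6 (-7.49 ± 0.11), the potassium channel Kcnj13 (-7.25 ± 0.11), Itih4, an inter-alpha-inhibitor chain (-7.05 ± 0.10), and Slc34a2, the phosphate transporter of alveolar type 2 cells (-6.87 ± 0.07). In each of the genes named here among the largest rises and falls the groups did not overlap. That largely follows from choosing them by size of change and shared sign. Over all genes tested the share without overlap was 68.3%.

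The gene with most counts was the same in both groups: Scgb1a1, the club cell secretory protein, took 11.1% to 12.3% at isolation and 2.05% to 2.77% at airlift. It was followed at isolation by Sftpc, surfactant protein C, with 4.07% to 5.42% at isolation and 0.0518% to 0.0696% at airlift. At airlift it was followed by Clu, the secreted chaperone clusterin, with 0.0502% to 0.0518% at isolation and 1.66% to 1.9% at airlift. Pkm, pyruvate kinase, was among the 10 genes with most counts at airlift but not at isolation, with 0.0693% to 0.0772% at isolation and 0.554% to 0.652% at airlift. So was the lysosomal protease gene Ctsd, with 0.115% to 0.131% at isolation and 0.331% to 0.385% at airlift.

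**Figure D2:**
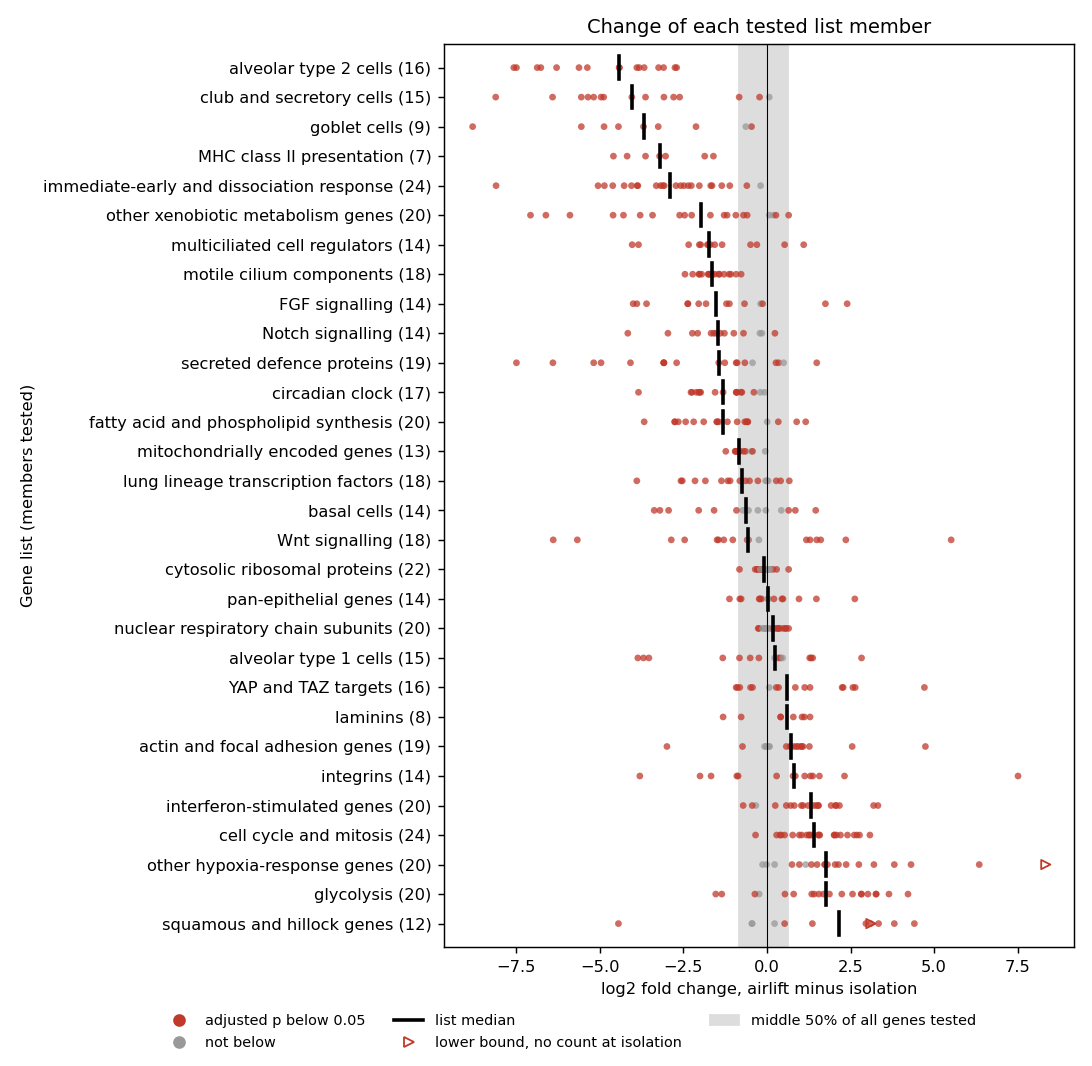
log2 fold change, airlift minus isolation, of each tested member of 30 gene lists (number tested in brackets); red points passed the test, the black bar is the list's median, the grey band holds the middle 50% of all genes tested, and an open triangle is a lower bound for a gene with no count at isolation. The medians of alveolar type 2, club and goblet genes (-4.42, -4.04 and -3.69) lie left of the band, those of glycolysis, hypoxia-response and cell cycle genes (1.78, 1.77 and 1.42) right of it, and those of ribosomal and nuclear respiratory chain genes (-0.08 and 0.17) inside it.

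The alveolar type 2 list fell as a whole: 16 of 16 tested genes were lower, each at least 2-fold, with a median of -4.42. Sftpc measured 69494, 60073 and 49962 CPM at isolation and 464 to 615 CPM (median 559.9) at airlift, and fell by 6.76 ± 0.06. Sftpb, surfactant protein B, measured 13230.0, 11603 and 10706 CPM at isolation and 196 to 282 CPM (median 241) at airlift, and fell by 5.62 ± 0.09. The list also holds genes of surfactant lipid, and Lpcat1, which makes its main phospholipid, fell by 3.67 ± 0.06. In these bulk samples, fewer cells of a type and less RNA per cell cannot be told apart.

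Club and secretory genes fell nearly as far: 14 of 15 tested genes were lower and none higher, with a median of -4.04. Cyp2f2, a cytochrome P450 of club cells, measured 7562, 8929 and 10019 CPM at isolation and 70 to 154 CPM (median 102) at airlift, and fell by 6.41 ± 0.15. Scgb1a1 measured 141679, 142958 and 150741 CPM at isolation and 18123 to 24962 CPM (median 20487) at airlift, and fell by 2.79 ± 0.07. Its fall was smaller than those of Cyp2f2 and Scgb3a2, and it had the most counts in both groups. Other members with large falls were Muc5b, a gel-forming mucin of the airway (-5.55 ± 0.22), Chad, a small matrix protein (-5.35 ± 0.08), and Cbr2, a carbonyl reductase (-4.88 ± 0.14).

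Of the goblet list, 8 of 9 tested genes fell and none rose (median -3.69). Agr2, a protein of mucin folding, fell by 4.87 ± 0.23 and the trefoil factor Tff2 by 4.44 ± 0.13. Multiciliated cells were described by regulators and by parts of the cilium. Regulators fell in 12 of 14 genes and cilium components in 18 of 18, with medians of -1.72 and -1.65. Foxj1, the master regulator of motile cilia, measured 93.7, 122 and 208 CPM at isolation and 32.9 to 85.9 CPM (median 49.3) at airlift, and fell by 1.34 ± 0.13. Its highest airlift library therefore lay just under its lowest isolation library. Ccno, which acts in centriole amplification, fell by 4.03 ± 0.22, while Plk4 and Cep152, which also serve centriole duplication in dividing cells, rose by 1.10 ± 0.12 and 0.53 ± 0.12.

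Of 15 alveolar type 1 genes 6 rose and 7 fell (median 0.23; 9 higher and 5 lower with library totals alone). Ager, a receptor abundant on these cells, measured 999.8, 866 and 729 CPM at isolation and 286 to 448 CPM (median 339.8) at airlift, and fell by 1.32 ± 0.14. Igfbp2, Rtkn2 and Spock2 fell by 3.86 ± 0.24, 3.69 ± 0.26 and 3.53 ± 0.19. In the other direction, Akap5, a kinase anchoring protein, measured 40.1, 24.8 and 27.7 CPM at isolation and 182 to 279.5 CPM (median 198) at airlift, and rose by 2.83 ± 0.19, and the chloride channel gene Clic5 rose by 1.37 ± 0.06.

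Of 14 tested genes that mark epithelium in general, 6 rose and 6 fell, with a median of 0.03. This split depended on the scaling, with 11 higher and 2 lower with library totals alone (median 0.52). Epcam, the gene of the sorting marker, measured 249, 224 and 216 CPM at isolation and 308 to 329.8 CPM (median 321) at airlift, and rose by 0.48 ± 0.05. The adherens junction gene Cdh1 measured 1232, 1229.5 and 1064 CPM at isolation and 990.4 to 1125 CPM (median 1044) at airlift, a change of -0.16 ± 0.06. Its groups overlapped, it lost its call without the isolation library of experiment A (-0.11, adjusted p = 0.18 by edgeR) or of B (-0.09, 0.23), and it turns positive under scaling by library totals. The keratins of simple epithelia split. Krt7 measured 354, 391 and 368 CPM at isolation and 2071 to 2481 CPM (median 2335) at airlift, and rose by 2.63 ± 0.07. Krt19 measured 1062, 978 and 969 CPM at isolation and 2363 to 3187 CPM (median 2758) at airlift, and rose by 1.48 ± 0.07. By contrast Krt18 fell by 1.12 ± 0.05, while Krt8, its usual partner, changed by -0.21 ± 0.06, a fall that also turns positive under library totals.

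The transcription factors that set lung identity were measured as a list of 18, of which 12 fell, 8 of them at least 2-fold, and 3 rose (median -0.73). This split depended on the scaling, with 7 higher and 9 lower with library totals alone (median -0.24). Nkx2-1, needed for lung fate, measured 128, 131 and 153 CPM at isolation and 160.0 to 174 CPM (median 165) at airlift, and rose by 0.28 ± 0.06. Foxa2 measured 75, 88.7 and 79.1 CPM at isolation and 74.4 to 91.8 CPM (median 82.5) at airlift, and its change of 0.04 ± 0.06 did not pass the test (adjusted p = 0.58). Sox2, a factor of the airway, measured 46.7, 52.2 and 64.7 CPM at isolation and 48.2 to 57.9 CPM (median 52.6) at airlift, with a change of -0.04 ± 0.07 that did not pass (adjusted p = 0.64, edgeR). Among members with at least 5 CPM in the higher group, the 4 largest changes were falls. Cebpa measured 563, 531 and 541 CPM at isolation and 77.1 to 102 CPM (median 91.6) at airlift, and fell by 2.57 ± 0.06. Etv5, a target of FGF signalling in alveolar type 2 cells, measured 305, 313 and 307 CPM at isolation and 18 to 22.3 CPM (median 21.1) at airlift, and fell by 3.89 ± 0.06. Elf5 fell by 2.53 ± 0.08 and Tfcp2l1 by 2.15 ± 0.05, while Tead1, a DNA-binding partner of YAP, rose by 0.67 ± 0.06. Hopx, a factor of alveolar type 1 cells, measured 144, 126 and 138 CPM at isolation and 140.2 to 222 CPM (median 185) at airlift, and rose by 0.41 ± 0.07, with overlapping groups.

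Rare airway cell genes gave 2 rises and 5 falls among 11 tested. Uchl1, a ubiquitin hydrolase used as a neuroendocrine marker, measured 5.75, 7.37 and 5.6 CPM at isolation and 65.1 to 78.9 CPM (median 67.4) at airlift, and rose by 3.48 ± 0.09, and the tuft cell kinase Dclk1 rose by 2.17 ± 0.15. Cftr, the chloride channel that is high in ionocytes, measured 53.2, 48.4 and 31.3 CPM at isolation and 5.98 to 11.3 CPM (median 7.51) at airlift, and fell by 2.46 ± 0.10. The ionocyte factor Foxi1 and the tuft cell channel Trpm5 did not pass the filter on low counts.

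Transcripts of other cell types were present in both groups. Those of macrophages and monocytes took the most, with 0.308% to 0.326% of a library's counts at isolation and 0.159% to 0.194% at airlift. The 15 macrophage and monocyte genes summed to 3778 to 4176 CPM at isolation and 1427 to 1715 CPM at airlift, with 11 of 15 lower and 3 higher, among them Marco, a scavenger receptor, which rose by 1.19 ± 0.06. The 12 lymphocyte genes summed to 513 to 889 CPM at isolation and 229.8 to 311 CPM at airlift, with 11 lower and none higher. The 9 neutrophil genes summed to 190.4 to 504 CPM at isolation and 189 to 284 CPM at airlift. Most of that sum was Ltf, which airway epithelium also makes. Of the 7 neutrophil genes tested, 5 fell, 4 of them at least 2-fold, and 1 rose (median -1.14). The 12 endothelial genes summed to 174 to 178 CPM at isolation and 94 to 114 CPM at airlift. Ptprc, which encodes the leukocyte protein CD45, measured 179, 148 and 156 CPM at isolation and 51 to 62.3 CPM (median 55.3) at airlift, and fell by 1.53 ± 0.06. Pecam1, of endothelium, fell by 2.29 ± 0.13. The 12 mesenchymal genes summed to 19.2 to 32.8 CPM at isolation and 29.1 to 77.4 CPM at airlift, and Col1a1, a collagen of fibroblasts, measured 2.84, 2.35 and 3.6 CPM at isolation and 14.5 to 40.8 CPM (median 18.5) at airlift, and rose by 2.94 ± 0.13. The sums of macrophage, lymphocyte and endothelial genes were thus lower in every airlift library than in any isolation library, while those of neutrophil and mesenchymal genes overlapped between groups. For mesenchymal genes the overlap depended on the scaling. Their share of unscaled counts was 0.0015% to 0.00267% at isolation and 0.00325% to 0.00868% at airlift, without overlap.

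**Figure D3:**
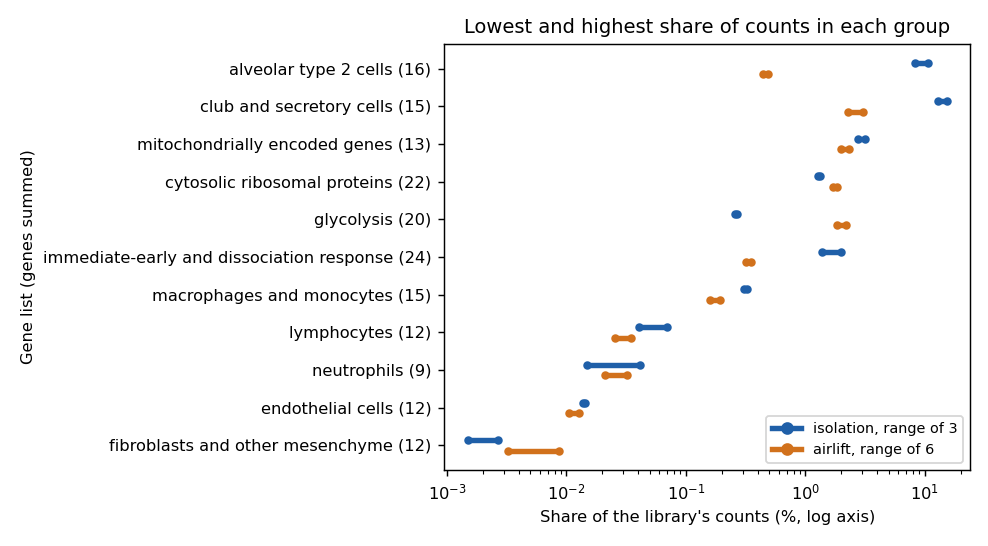
Share of a library's counts (%, log axis) taken by each of 11 gene lists (number of genes summed in brackets); each bar runs from the lowest to the highest library of a group, blue for 3 isolation and orange for 6 airlift libraries. The share of alveolar type 2 genes fell from at least 8.26% to at most 0.487%, and that of glycolysis genes rose from at most 0.266% to at least 1.85%.

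Receptors for the matrix were among the genes that rose. Of 14 integrin genes, 9 rose and 5 fell, with a median of 0.82. Beside Itga2, the rises were largest for Itgb6, which forms an activator of latent TGF-beta (2.32 ± 0.10), Itga3, a laminin receptor chain (1.57 ± 0.06), and Itgb5 (1.37 ± 0.06). Itgb1, the shared beta chain and the member with most counts, measured 416, 405 and 376 CPM at isolation and 665 to 711 CPM (median 687) at airlift, and rose by 0.78 ± 0.05. Itga5, the fibronectin receptor chain, fell by 0.86 ± 0.06. Laminins, the main glycoproteins of basement membrane, gave 6 rises and 2 falls among 8 tested. Lamb3 and Lama3, which encode laminin beta 3 and alpha 3 chains, rose by 1.29 ± 0.06 and 1.05 ± 0.23.

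Secreted matrix proteins split, with 8 of 18 higher and 5 lower (11 higher and 4 lower with library totals alone). Fn1, fibronectin, measured 144, 119 and 147 CPM at isolation and 1315 to 1709.5 CPM (median 1393) at airlift, and rose by 3.43 ± 0.07. Tnc, tenascin C of injured tissue, measured 0.832, 1.01 and 0.852 CPM at isolation and 27.8 to 42 CPM (median 32.9) at airlift, and rose by 5.25 ± 0.13. Thbs1, thrombospondin 1, went the other way: it measured 3221, 3228 and 2914 CPM at isolation and 448 to 631 CPM (median 578) at airlift, and fell by 2.51 ± 0.06. Thbs1 had the most counts of this list at isolation. The genes of matrix proteases and their inhibitors divided 9 to 9 among 19 (10 higher and 5 lower with library totals alone). Adam12, a membrane protease, measured 0.0693, 0.134 and 0.131 CPM at isolation and 18.4 to 25.2 CPM (median 20.3) at airlift, and rose by 7.53 ± 0.18. Mmp14, a membrane-bound collagenase, rose by 2.72 ± 0.07. The inhibitors Timp1 and Timp3 moved in opposite directions, by 4.23 ± 0.20 and -2.61 ± 0.08, and Timp3 had by far the more counts.

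Targets of the mechanically controlled coactivators YAP and TAZ were higher in 10 of 16 and lower in 5, with 7 rises and no fall of at least 2-fold. Ankrd1 measured 2.11, 0.67 and 0.917 CPM at isolation and 29.2 to 34.9 CPM (median 31.7) at airlift, and rose by 4.71 ± 0.21. Ajuba, Amotl1 and Nt5e rose by 2.64 ± 0.07, 2.57 ± 0.07 and 2.28 ± 0.07. Ccn1, which is also an immediate-early gene, measured 758, 987 and 1134 CPM at isolation and 470.1 to 558 CPM (median 532) at airlift, and fell by 0.88 ± 0.12. Genes of actin and focal adhesions gave 12 rises and 2 falls among 19. Tpm2, a tropomyosin, measured 2.46, 3.32 and 2.62 CPM at isolation and 59.7 to 90.4 CPM (median 76.2) at airlift, and rose by 4.74 ± 0.12, and the actin crosslinker Actn1 rose by 1.27 ± 0.06. Vim, vimentin, measured 1321, 1181 and 1177 CPM at isolation and 126 to 181 CPM (median 152) at airlift, and fell by 2.99 ± 0.07. Actb did not pass the test (-0.00 ± 0.06, adjusted p = 0.94 by edgeR).

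Of 12 tested genes of squamous and hillock epithelium, 8 rose and 1 fell (median 2.16); 6 of the 18 listed did not pass the filter. Sprr1a, a cornified envelope precursor, measured 182, 139 and 78.1 CPM at isolation and 1205 to 1439 CPM (median 1282) at airlift, and rose by 3.34 ± 0.26. Krt4 rose by 3.10 ± 0.24 and S100a14 by 3.81 ± 0.08. Ivl, involucrin, is also an envelope precursor, but measured 14, 12.9 and 14.2 CPM at isolation and 0.423 to 0.891 CPM (median 0.62) at airlift, and fell by 4.44 ± 0.16. The list of the Krt8-high transitional state, described in regenerating alveoli, was divided, with 9 of 18 higher and 7 lower. This split depended on the scaling, with 12 higher and 5 lower with library totals alone (median 0.63). Clu measured 643, 651 and 626 CPM at isolation and 14687 to 16922 CPM (median 16061) at airlift, and rose by 4.64 ± 0.07, whereas the EGF family ligands Hbegf and Areg of that list fell.

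Tight junction genes gave 6 rises and 8 falls among 18 (median -0.06; 11 higher and 6 lower with library totals alone), and desmosome genes 5 and 2 among 8. Cldn1 measured 40.8, 44.8 and 48 CPM at isolation and 2.19 to 3.98 CPM (median 2.89) at airlift, and fell by 3.91 ± 0.10. Cldn10 fell by 2.09 ± 0.08, while Cldn18, the claudin of alveolar epithelium, rose by 0.96 ± 0.08. Cldn4, the member with most counts, measured 1415, 1484 and 1422 CPM at isolation and 1244 to 1532 CPM (median 1502) at airlift, and did not pass the test (0.02 ± 0.06, adjusted p = 0.77 by edgeR). Pkp3 and Dsg2 of desmosomes rose by 1.36 ± 0.07 and 1.27 ± 0.06.

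Growth factor pathways were ordered by ligand, receptor and target. Among EGF family genes 8 of 14 fell and 4 rose (median -0.71). The ligand Hbegf measured 306, 294 and 285 CPM at isolation and 68.5 to 76.9 CPM (median 71.8) at airlift, and fell by 2.03 ± 0.05. Areg, another ligand, measured 214, 213 and 201 CPM at isolation and 60.4 to 80.9 CPM (median 72) at airlift, and fell by 1.55 ± 0.06. Ereg, also a ligand, fell by 2.13 ± 0.19, while the ligand Tgfa and the receptor Erbb2 rose by 0.64 ± 0.06 and 0.74 ± 0.06. Errfi1, an inhibitor of the receptor that its activity induces, measured 1590.5, 1659 and 1661 CPM at isolation and 242 to 329.5 CPM (median 265) at airlift, and fell by 2.56 ± 0.06.

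FGF signalling genes fell in 11 of 14 and rose in 2, with a median of -1.51. The receptor Fgfr2, which receives mesenchymal FGF, measured 337, 303 and 332 CPM at isolation and 78.7 to 109.7 CPM (median 87.4) at airlift, and fell by 1.82 ± 0.06. Of the pathway's feedback inhibitors, Spry4 fell by 4.00 ± 0.17 and Spry1 by 3.60 ± 0.14. The ETS factors Etv5 and Etv4, both known as targets, moved apart, by -3.89 ± 0.06 and 2.40 ± 0.23. Etv4 measured 0.624, 0.972 and 1.8 CPM at isolation and 5.13 to 6.39 CPM (median 6.05) at airlift.

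Wnt genes gave 6 rises and 10 falls among 18. The ligand Wnt7a measured 1.94, 1.14 and 0.983 CPM at isolation and 59.1 to 64.8 CPM (median 60.8) at airlift, and rose by 5.51 ± 0.13. Wnt7b, the ligand with most counts, measured 41, 49.7 and 41.1 CPM at isolation and 115 to 148 CPM (median 134) at airlift, and rose by 1.61 ± 0.09, and Wnt5a rose by 2.36 ± 0.09. Among inhibitors of the pathway, Notum, which inactivates Wnt ligands, measured 10.2, 10.3 and 10.5 CPM at isolation and 0.138 to 0.285 CPM (median 0.189) at airlift, and fell by 5.67 ± 0.18. Nkd1, which acts inside the cell, measured 136, 134 and 116 CPM at isolation and 15.8 to 21.2 CPM (median 16.9) at airlift, and fell by 2.86 ± 0.09. The binding protein Wif1 fell by 6.39 ± 0.59, with 0 to 0.469 CPM at airlift.

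Of 14 Notch genes, 11 fell, 9 of them at least 2-fold, and 1 rose. Notch2, the receptor with most counts, measured 275, 280.4 and 258 CPM at isolation and 109 to 115 CPM (median 112) at airlift, and fell by 1.27 ± 0.05. The ligand Jag1 measured 92.6, 93.4 and 103 CPM at isolation and 19.1 to 25.5 CPM (median 24.8) at airlift, and fell by 2.07 ± 0.08, and the ligand Dll1 fell by 1.67 ± 0.11. The target Hey1 and the regulator Dtx1 fell by 2.23 ± 0.23 and 2.96 ± 0.18. TGF-beta and BMP genes gave 6 rises and 10 falls among 19 (8 higher and 6 lower with library totals alone). Ltbp1, which stores latent TGF-beta in the matrix, measured 0.797, 1.14 and 1.24 CPM at isolation and 33.9 to 50 CPM (median 38.9) at airlift, and rose by 5.27 ± 0.12. The ligand subunit Inhba rose by 2.13 ± 0.11, and the ligands Bmp2 and Bmp4 and the BMP target Id2 fell by 1.88 ± 0.07, 1.26 ± 0.07 and 1.17 ± 0.06.

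Glycolysis splits glucose to pyruvate, and lactate dehydrogenase and a lactate exporter dispose of the product. Of 20 genes from glucose uptake to lactate export, 16 rose, 14 of them at least 2-fold, and 3 fell (median 1.78). Eno1, enolase, measured 129.8, 130.1 and 124 CPM at isolation and 2157 to 2584 CPM (median 2352) at airlift, and rose by 4.22 ± 0.07. Pgk1, phosphoglycerate kinase, measured 191, 206 and 192 CPM at isolation and 1759 to 1931 CPM (median 1893) at airlift, and rose by 3.26 ± 0.06. Ldha, lactate dehydrogenase A, measured 391, 375 and 381 CPM at isolation and 2488 to 2879.8 CPM (median 2731) at airlift, and rose by 2.83 ± 0.06, and the lactate exporter Slc16a3 rose by 3.65 ± 0.08. In these 4 genes every airlift library was several-fold above every isolation library.

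**Figure D4:**
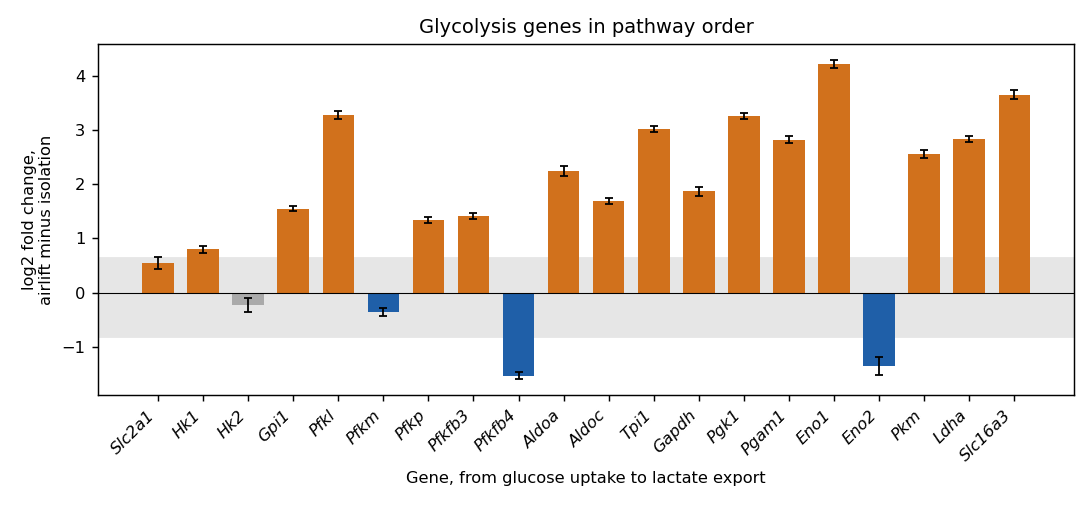
log2 fold change, airlift minus isolation, of 20 glycolysis genes in pathway order from glucose uptake to lactate export; error bars are standard errors, orange and blue bars passed the test, the grey bar did not, and the grey band holds the middle 50% of all genes tested. Eno1 rose most and the rises run along the whole pathway, whereas Eno2, Pfkm and Pfkfb4 fell.

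Isoforms of the same step moved apart. Pfkl, the liver phosphofructokinase, measured 76.5, 68.4 and 72.5 CPM at isolation and 581 to 791 CPM (median 699) at airlift, and rose by 3.27 ± 0.07, while the muscle form Pfkm fell by 0.36 ± 0.07, a fall that turns positive under library totals. Eno2, the neuronal enolase, measured 10.4, 8.18 and 7.04 CPM at isolation and 2.35 to 4.02 CPM (median 3.36) at airlift, and fell by 1.35 ± 0.16. Pfkfb3 and Pfkfb4 make the activator of phosphofructokinase, and they changed by 1.41 ± 0.06 and -1.53 ± 0.06. The transporter Slc2a1 rose by 0.54 ± 0.11, and Hk2, hexokinase 2, did not pass the test (-0.23 ± 0.13, adjusted p = 0.15 by edgeR). Without the isolation library of experiment C, Hk2 had a log2 fold change of -0.46 (adjusted p = 3.1e-07 by edgeR). Counts of Gapdh and Aldoa are uncertain, since both have many near-identical pseudogenes. Whether copies of other genes of the list, Eno1 among them, share reads was not examined.

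Other genes that hypoxia is known to induce rose in 16 of 20 and fell in none (median 1.77). Egln3 measured 1.59, 0.838 and 1.7 CPM at isolation and 71.6 to 172 CPM (median 96) at airlift, and rose by 6.35 ± 0.11. Car9, carbonic anhydrase 9, measured 1.53, 1.44 and 1.57 CPM at isolation and 16.5 to 26.8 CPM (median 20.6) at airlift, and rose by 3.81 ± 0.12. Bnip3, of mitochondrial clearance, measured 60.1, 62.6 and 52.8 CPM at isolation and 493 to 608 CPM (median 521) at airlift, and rose by 3.20 ± 0.08. Ndufa4l2, a mitochondrial protein, had 0 counts in the 3 isolation libraries and 8.6 to 13.4 CPM at airlift, which makes it at least 324-fold higher against a floor of 3 counts over the isolation group; floors cover counting error only.

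The promoters of 4 of these genes are shown because the hypoxia-inducible factors bind the core ACGTG. All 4 are genes with a match, so they do not stand for the lists. Of several starts, the one with most matches was taken. Each window was placed to hold as many matches as possible. The stretches are 100 bases each, within the 250 bases before the RefSeq start (mouse build GRCm38.p6, another build than that of the counts), 5′ to 3′ on the gene's strand, with the core in capitals on either strand, where it reads CACGT; in CACGTG the matches on the strands overlap. Pgk1 lies at chrX:106186909-106187008, plus strand, Ldha at chr7:46845675-46845774, plus strand, Slc16a3 at chr11:120948967-120949066, plus strand and Bnip3 at chr7:138909565-138909664, minus strand.
Pgk1: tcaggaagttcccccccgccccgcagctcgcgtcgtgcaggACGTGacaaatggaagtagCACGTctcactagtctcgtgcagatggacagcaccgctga
Ldha: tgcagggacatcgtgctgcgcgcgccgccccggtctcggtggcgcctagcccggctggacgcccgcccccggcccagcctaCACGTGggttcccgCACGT
Slc16a3: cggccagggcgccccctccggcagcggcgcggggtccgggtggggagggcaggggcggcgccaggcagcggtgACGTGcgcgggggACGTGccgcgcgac
Bnip3: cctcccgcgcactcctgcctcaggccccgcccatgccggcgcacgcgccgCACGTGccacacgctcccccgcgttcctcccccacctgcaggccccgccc
The core was in the 250 bases of 16.6% of all 32851 promoters in the table. Counting a gene once where any of its starts had a match, it was found for 10 of 20 glycolysis genes (50%) and for 12 of the 15 other hypoxia-response genes in the table (80%), beside 18.5% of all 27025 genes. Bnip3l, Loxl2, Ndrg1, Ndufa4l2 and Plod2 had no entry. The match is a description of letters, not of binding. The hypoxia-response list was made of genes known to be induced by hypoxia, so its share may follow from that choice. The share over all genes was not matched for base composition. Among glycolysis genes, Eno1 and Pfkl, which rose, had no match in the 250 bases. Pfkm, which fell, and Hk2, which did not pass the test, had one.

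Of 20 genes of fatty acid and phospholipid synthesis, 16 fell and 3 rose (median -1.31). Scd1, stearoyl-CoA desaturase, measured 8972, 6645 and 5726 CPM at isolation and 986 to 1450.3 CPM (median 1044) at airlift, and fell by 2.65 ± 0.19. Fasn, fatty acid synthase, measured 2108, 1773 and 1378 CPM at isolation and 215 to 319.9 CPM (median 261) at airlift, and fell by 2.75 ± 0.07. Chka, choline kinase, fell by 2.76 ± 0.06, and Me1, malic enzyme, rose by 1.16 ± 0.05. Of 20 sterol synthesis genes 16 fell, 6 of them at least 2-fold, and 1 rose (median -0.49), but the split was 5 higher and 9 lower with library totals alone, where the median was 0.

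The respiratory chain has subunits from both genomes. Nuclear subunits rose in 11 of 20 genes and fell in 2, none by 2-fold, with a median of 0.17. With library totals alone, 20 of them were higher and 0 lower (median 0.66). Mitochondrially encoded genes fell in 11 of 13 and rose in none, with a median of -0.82. Under library totals 7 of them were lower and 0 higher (median -0.33). COX1 measured 12849, 13954 and 13399 CPM at isolation and 5254 to 6263 CPM (median 5722) at airlift, and fell by 1.23 ± 0.05. ND5 measured 4289.9, 4972 and 4619.5 CPM at isolation and 2171 to 2685 CPM (median 2355) at airlift, and fell by 0.95 ± 0.05. The 13 mitochondrial genes took 2.76% to 3.16% of a library's counts at isolation and 2% to 2.33% at airlift. Of 22 ribosomal protein genes 3 rose, 8 fell and none changed 2-fold (median -0.08), but the split turned to 20 higher and 1 lower with library totals alone (median 0.41). Genes of ribosome biogenesis and Myc targets gave 9 rises and 7 falls among 20 (17 higher and 3 lower with library totals alone). Myc itself measured 323, 347 and 309 CPM at isolation and 141 to 225 CPM (median 196) at airlift, and fell by 0.85 ± 0.07.

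Genes of the cell cycle rose in 23 of 24, 17 of them at least 2-fold (median 1.42). Mki67, a marker of cycling cells, measured 26.3, 21.4 and 21.2 CPM at isolation and 58 to 83.2 CPM (median 66.8) at airlift, and rose by 1.56 ± 0.09. Ccnb1, cyclin B1, measured 2.74, 3.92 and 3.21 CPM at isolation and 22.9 to 32.4 CPM (median 28.6) at airlift, and rose by 3.08 ± 0.11. Cdk1 and Plk1, kinases of mitosis, rose by 2.69 ± 0.08 and 2.61 ± 0.11. Pcna, the replication clamp and the member with most counts, fell by 0.34 ± 0.06, a fall that turns positive under library totals. Targets of p53 and inhibitors of the cell cycle were divided, 10 higher and 8 lower among 18 (10 higher and 5 lower with library totals alone). Ccng1 and Phlda3 rose by 1.94 ± 0.07 and 1.80 ± 0.09, Gdf15 fell by 2.06 ± 0.07, and Cdkn1a, which encodes the inhibitor p21, measured 629, 576 and 502 CPM at isolation and 627 to 708 CPM (median 684) at airlift and overlapped between groups.

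Immediate-early genes answer stimuli within minutes, and enzymatic tissue dissociation is known to induce them. Of 24 listed, 23 fell, 22 of them at least 2-fold, and none rose (median -2.90). Fosb measured 2559, 2512 and 3043 CPM at isolation and 6.56 to 12.3 CPM (median 11.3) at airlift, and fell by 8.10 ± 0.23. Fos measured 729, 733 and 1214 CPM at isolation and 28.5 to 32.2 CPM (median 29.6) at airlift, and fell by 4.86 ± 0.16. Nr4a1, an orphan nuclear receptor, measured 754, 796 and 1093 CPM at isolation and 20.2 to 31.1 CPM (median 27.6) at airlift, and fell by 5.05 ± 0.20. Together the 24 genes took 1.38% to 2% of a library's counts at isolation and 0.316% to 0.351% at airlift. What part of the isolation level arose during isolation was not tested.

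Promoters of Fos, Fosb, Junb and Nr4a1, which all have a match, are shown with the core TGACG of the cAMP response element. The core is in capitals, also on the other strand, where it reads CGTCA. The windows follow the same rules. Fos lies at chr12:85473742-85473841, plus strand, Fosb at chr7:19310056-19310155, minus strand, Junb at chr8:84978805-84978904, minus strand and Nr4a1 at chr15:101266613-101266712, plus strand.
Fos: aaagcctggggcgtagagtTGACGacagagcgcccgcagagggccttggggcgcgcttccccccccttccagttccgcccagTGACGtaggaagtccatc
Fosb: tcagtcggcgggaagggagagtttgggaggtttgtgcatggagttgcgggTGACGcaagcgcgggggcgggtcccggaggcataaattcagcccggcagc
Junb: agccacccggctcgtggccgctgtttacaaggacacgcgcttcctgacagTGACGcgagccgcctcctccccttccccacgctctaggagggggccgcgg
Nr4a1: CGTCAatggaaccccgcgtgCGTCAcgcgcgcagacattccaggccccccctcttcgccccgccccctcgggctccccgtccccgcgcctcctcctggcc
This core was in 17.8% of all promoters and in those of 12 of 20 immediate-early genes in the table (60%), beside 19.8% of all genes. Egr1, Egr3, Fosl1 and Ier2 had no entry. Read across, it was found for 5 of 20 glycolysis genes (25%), and the core ACGTG for 7 of 20 immediate-early genes (35%). The immediate-early list is of genes known for that response, so its share with TGACG may also follow from that choice. Junb, the AP-1 factor, fell by 1.35 ± 0.05.

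Clock genes fell in 15 of 17 and rose in none (median -1.31). Nr1d1, a repressor of the clock, measured 884, 934 and 1071 CPM at isolation and 57.6 to 82 CPM (median 66.4) at airlift, and fell by 3.84 ± 0.10. Per1 and Dbp fell by 2.24 ± 0.09 and 2.11 ± 0.15. The hours of sampling are not in the labels. Genes that glucocorticoids induce gave 12 falls and 2 rises among 15. Pdk4, a kinase that holds back pyruvate oxidation, measured 145, 114 and 167 CPM at isolation and 6.14 to 9.11 CPM (median 7.07) at airlift, and fell by 4.29 ± 0.15. Both rises were enzymes of glucocorticoid metabolism, Hsd11b1 (3.72 ± 0.12) and Hsd11b2 (1.85 ± 0.14).

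The unfolded protein and integrated stress response list held 11 higher and 9 lower among 20, and 6 falls of at least 2-fold. Atf3, which is also an immediate-early gene, measured 2129, 2067 and 2248 CPM at isolation and 122 to 167 CPM (median 156) at airlift, and fell by 3.88 ± 0.08. The stress sensor Sesn2, the chaperone cofactor Dnajb9 and Herpud1 of protein degradation fell by 1.97 ± 0.07, 1.87 ± 0.09 and 1.69 ± 0.07. Amino acid transporters fell in 8 of 12 and rose in 3 (5 higher and 4 lower with library totals alone). The glutamine transporters Slc1a5 and Slc38a2 fell by 1.98 ± 0.05 and 1.62 ± 0.05.

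Enzymes that handle foreign compounds, abundant in club cells, were mostly lower. P450 genes fell in 10 of 13 and rose in 2, and other xenobiotic genes fell in 16 of 20 and rose in 2 (medians -0.89 and -1.97). Cyp4b1 measured 393, 423 and 478 CPM at isolation and 12 to 19 CPM (median 13.9) at airlift, and fell by 4.87 ± 0.07. Ces1d, a carboxylesterase whose family members are close copies, measured 1071, 1066 and 1075 CPM at isolation and 32.6 to 61.3 CPM (median 42.1) at airlift, and fell by 4.60 ± 0.12. The P450 genes that rose act on signalling molecules: Cyp26b1, which degrades retinoic acid, measured 3.12, 3.89 and 4.78 CPM at isolation and 41.7 to 101 CPM (median 62.2) at airlift, and rose by 4.06 ± 0.13, and Cyp1b1, which oxidises steroids and retinoids, rose by 3.37 ± 0.08. Targets of the oxidative stress factor NRF2 split into 10 rises and 11 falls among 23 (median -0.16), but into 14 higher and 6 lower with library totals alone (median 0.33). Nqo1, a quinone reductase, rose by 2.01 ± 0.07, and Gclc, of glutathione synthesis, measured 2705, 2701 and 2007 CPM at isolation and 885 to 1298 CPM (median 1068) at airlift, and fell by 1.20 ± 0.05.

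Genes of ion and fluid transport fell in 13 of 17 and rose in 4 (median -1.10). The anion exchanger Slc26a4 fell by 3.40 ± 0.15. The calcium-activated chloride channel Ano1 measured 56.3, 50.1 and 56.4 CPM at isolation and 318 to 402 CPM (median 353) at airlift, and rose by 2.73 ± 0.06. The water channels Aqp3 and Aqp4 moved apart, by -3.37 ± 0.32 and 2.96 ± 0.11.

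The 7 genes of MHC class II presentation all fell (median -3.21). Cd74, the invariant chain, measured 4255, 3949 and 3645 CPM at isolation and 414 to 439.7 CPM (median 427) at airlift, and fell by 3.21 ± 0.05. H2-Aa measured 1606, 1584 and 1432 CPM at isolation and 80.4 to 88.9 CPM (median 84.7) at airlift, and fell by 4.18 ± 0.06. Leukocytes also make these proteins, and the sums of macrophage and lymphocyte markers given above fell in the same comparison. The medians of those lists were -0.86 and -1.47, and that of the alveolar type 2 list was -4.42. The part of any cell type in the result was not tested. MHC class I genes rose in 8 of 12 and fell in 2, the largest rise being that of the loading factor Tapbp (1.15 ± 0.06). The 2 that fell were H2-D1, the member with most counts, and H2-K1. Summed, the 12 genes measured 4071 to 4479 CPM at isolation and 4066 to 4386 CPM at airlift. With library totals alone the split was 12 higher and 0 lower. Genes that interferons induce rose in 17 of 20, 13 of them at least 2-fold, and fell in 2 (median 1.32). Oasl2 measured 4.89, 6.74 and 10.8 CPM at isolation and 59.4 to 78 CPM (median 64.4) at airlift, and rose by 3.19 ± 0.13. Irf7, which drives interferon genes, measured 18.3, 19.1 and 20.8 CPM at isolation and 76.5 to 94.3 CPM (median 89) at airlift, and rose by 2.17 ± 0.08, while Irf1 fell by 0.71 ± 0.06.

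Secreted defence proteins, many of them club and alveolar type 2 products, fell in 14 of 19 and rose in 3. Chi3l1, a chitinase-like protein, measured 3238, 3001 and 2671 CPM at isolation and 32.5 to 39 CPM (median 34.8) at airlift, and fell by 6.40 ± 0.07. Lyz2, lysozyme, measured 23244, 19729 and 16716 CPM at isolation and 2124 to 2519 CPM (median 2323) at airlift, and fell by 3.09 ± 0.06; its near copy Lyz1 can share reads with it, and macrophages make both. The membrane mucin Muc4 rose by 1.49 ± 0.10. Complement genes fell in 12 of 18 and rose in 5.

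Chemokine genes fell in 11 of 17 and rose in 4 (median -0.76). Cxcl15, the lung chemokine, measured 4325, 4141 and 3292 CPM at isolation and 41.5 to 66.1 CPM (median 49.2) at airlift, and fell by 6.29 ± 0.08. Cxcl2 and Cxcl1, which draw neutrophils, fell by 5.05 ± 0.06 and 4.26 ± 0.10. Ccl9 and Cxcl14 rose by 2.58 ± 0.07 and 2.53 ± 0.13. Cytokine genes gave 8 falls and 6 rises among 17 (8 higher and 7 lower with library totals alone). Il33, an alarm cytokine, measured 169, 177 and 159.8 CPM at isolation and 9.66 to 13.6 CPM (median 12.1) at airlift, and fell by 3.82 ± 0.07, and Tnf fell by 3.46 ± 0.07. Of sensors, 9 of 14 fell and 4 rose (5 higher and 5 lower with library totals alone). Tlr2, for bacterial lipoproteins, measured 358, 309 and 320.0 CPM at isolation and 41 to 60.6 CPM (median 52.1) at airlift, and fell by 2.69 ± 0.06. Tlr3, for double-stranded RNA, measured 5.06, 5.63 and 8.09 CPM at isolation and 22 to 25.5 CPM (median 23.8) at airlift, and rose by 1.94 ± 0.12. Macrophage and alveolar type 2 markers fell beside the chemokine, cytokine and sensor genes, and Cxcl15 and Il33 are also in the alveolar type 2 list. The part of any cell type in these falls was not tested.

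Whether the change differed between the 3 experiments was tested with group by experiment terms in edgeR. This test called 901 genes (5.08%), and 3504 had an unadjusted p below 0.05. Its spread comes from the duplicate airlift libraries alone (3 residual degrees of freedom), and each experiment has 1 isolation library, so a deviation of that library and a difference between experiments cannot be told apart. For 566 of the 901 genes the experiment farthest from the others was C, for 187 it was A and for 148 it was B. The change ran in opposite directions by 1 or more in 12 of these genes.

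Basal cell genes differed most: 9 of 14 were called, and the median over the list of the range between experiments was 2.05. Krt5, the defining keratin, measured 13.5, 41.1 and 46.4 CPM at isolation and 2.45 to 17.2 CPM (median 10.6) at airlift. Within experiments A, B and C its log2 difference was -0.35, -4.04 and -1.62, and the change over the 3 was -2.04 ± 0.66 (adjusted p = 0.033 by edgeR). That call was lost without the isolation library of C (adjusted p = 0.08) and without any 1 of 5 of the 6 airlift libraries (adjusted p = 0.054 to 0.073), and with the airlift libraries of an experiment summed it was 0.24. Trp63, the p63 factor of basal cells, measured 0.347, 1.94 and 4.19 CPM at isolation and 0.51 to 2.11 CPM (median 1.14) at airlift, with differences of 1.56, -1.70 and -1.07. It did not pass the test over the 3 experiments (-0.72 ± 0.44, adjusted p = 0.16 by edgeR), but fell by 1.37 without the isolation library of A (adjusted p = 8.9e-05). At isolation both genes were lowest in experiment A, and in both the groups overlapped. Over the whole list 3 of 14 genes rose and 6 fell (median -0.63; 4 higher and 4 lower with library totals alone), and the median was -0.09 without the isolation library of experiment B. Aqp3, a water channel of basal cells, was lower in each experiment, with differences of -2.40, -4.42 and -3.32.

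**Figure D5:**
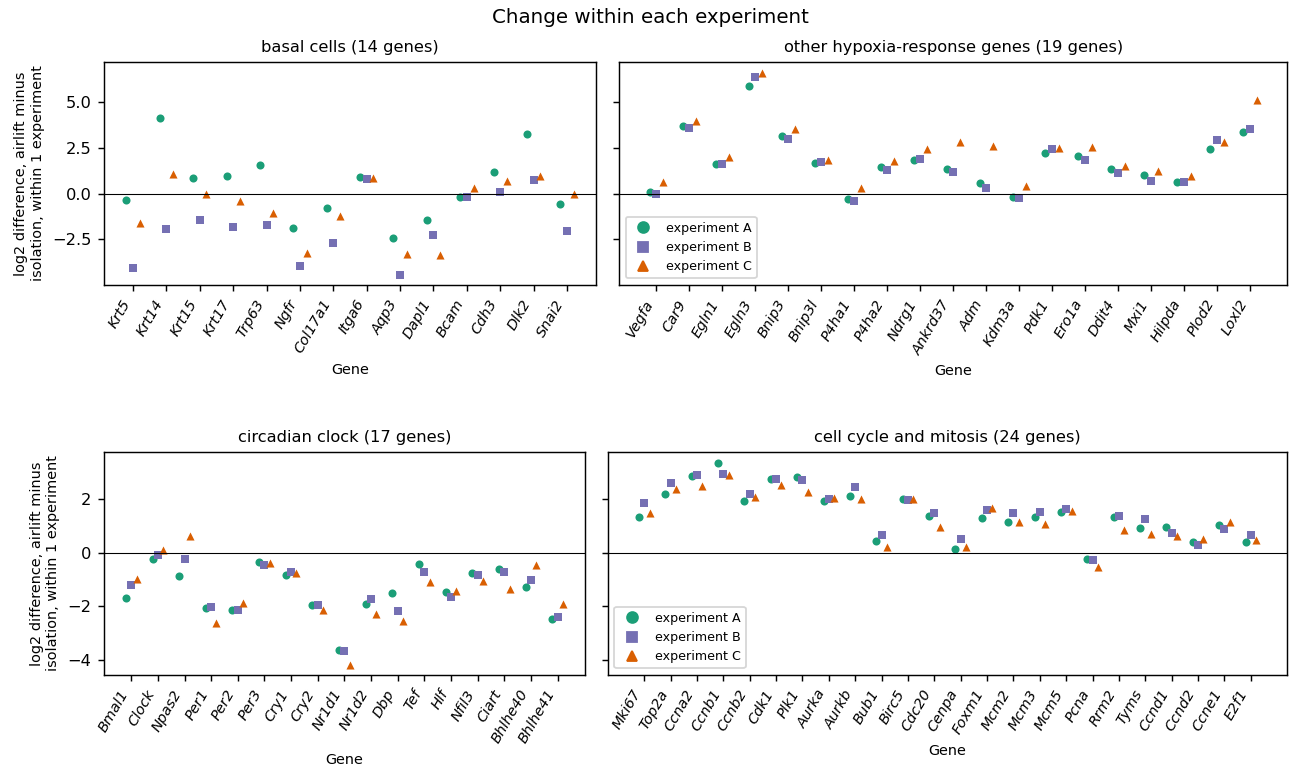
log2 difference, airlift minus isolation, within each experiment (green circle A, purple square B, orange triangle C) for each tested gene of 4 lists with a count at isolation. Basal cell genes spread over several units and change sign between experiments, and hypoxia-response genes lie highest in C for Adm and Ankrd37. The median range of cell cycle genes between experiments is 0.37, the same as over all genes tested.

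Beside 5.08% of all genes tested, 11 of the 20 hypoxia-response genes were called for a difference. So were 14 of 24 immediate-early and 10 of 17 clock genes. High shares were not particular to these lists. The test also called 9 of 15 alveolar type 1, 8 of 15 club and secretory, 10 of 19 actin and focal adhesion, and 9 of 18 matrix protein genes. None of the cell cycle, ribosomal, nuclear respiratory chain or mitochondrially encoded genes was called. Each of those lists is too short for this to stand apart from the share over all genes. Fosb changed by -7.71, -7.79 and -8.79 and Nr4a1 by -4.67, -4.80 and -5.66 in A, B and C, so that both fell most in C. Bnip3 rose in each, by similar amounts in A and B and most in C (adjusted p of the difference = 0.0092 by edgeR). Adm and Ankrd37, named after their values were seen, gave 0.57, 0.29 and 2.58 and 1.35, 1.20 and 2.79. Over the 3 experiments Adm did not pass the test (1.16 ± 0.48, adjusted p = 0.074 by edgeR); without the isolation library of C it rose by 0.45 (adjusted p = 0.0046) and without that of B by 1.63 (0.048). Dbp, an output of the clock, measured 17.2, 24.4 and 46.5 CPM at isolation, and fell most in C.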

How the data were processed

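RNA was sequenced in bulk, and the authors deposited 1 table of raw counts per gene for each experiment, whole numbers that are not normalised. The submitters' processing notes name STAR, DESeq2 and GRCm39, with no versions; what counted the reads, and whether strand was used, is not given in these sources, so overlapping and antisense genes cannot be told apart. Of 41098 lines per experiment, 25 were broken and were left out, which lost 6 genes and left 41073. Among counts below 20, 69.3% to 73.1% were even, so the independent fragments may be fewer than the counts.

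The 9 libraries were fitted in edgeR 4.0.16 (R 4.3.3): filterByExpr with a minimum count of 10, TMM scaling, experiment and group as terms, robust quasi-likelihood F-tests and a Benjamini-Hochberg adjusted p below 0.05. CPM use TMM-scaled totals. The standard error is the log2 fold change divided by the square root of F. Differences within 1 experiment use a prior count of 2. The scripts were tested on simulated data. The 2 airlift libraries of an experiment were not identical (chi-square per gene 2.97, 12.25 and 3.57, where counting each fragment 2 times would alone give about 2). Each was used as a replicate as labelled, which does not show that they are separate cultures; summing them is an alternative. The experiment label, which is also the batch label, pairs the groups and is in the fit.

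The members and the 57 gene lists were chosen with earlier results of these data known; a gene may be in several lists, and lists were described by counts and medians with no set test. Genes were named by a rule: the 10 largest changes each way among called genes with at least 50 CPM in the higher group and 1 sign in every experiment, the 10 genes with most counts in each group, 21 fixed genes, and per list the 4 largest changes and the 2 largest against the majority (called, at least 5 CPM) and the member with most counts. Adm, Ankrd37, Hk2, Junb, Pfkfb3, Pfkm, Scd2 and Slc2a1 were named after their values were seen. Some genes that the rule names are not reported here. The alternatives were other scalings, DESeq2 1.42.0, limma-voom (limma 3.58.1) with sample weights, a minimum change, no filter, no experiment term, summed airlift libraries, fits on 16 or 23 libraries, halved counts, and leaving out each library or experiment. Promoter sequences are from RefSeq (GRCm38.p6), matched by symbol. No coordinates other than those of the promoters are given, since the annotation at hand is of that build.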

Additional observations from a re-analysis of the deposited data

Results flagged for a closer look

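The change from isolation to airlift differed between the 3 experiments, by the test of that difference, in 55 of the 204 genes tested that the text names with a value. Over all genes tested the share was 5.08%. The adjusted p of the group by experiment terms (edgeR) was 3.7e-08 for Krt5, 0.00045 for Aqp3, 0.0037 for Trp63, 0.00019 for Krt4 and 2.9e-05 for Sprr1a among basal cell and squamous genes. For hypoxia-response and glycolysis genes it was 1.7e-05 for Adm, 0.0018 for Ankrd37, 0.0092 for Bnip3, 0.00025 for Hk2 and 0.014 for Slc2a1. Immediate-early and clock genes gave 1.1e-05 for Fosb, 2.3e-05 for Fos, 0.0002 for Nr4a1, 0.0066 for Atf3, 0.0079 for Per1, 0.011 for Dbp and 0.036 for Nr1d1. Alveolar genes gave 4.1e-05 for Ager, 5.7e-05 for Akap5, 0.0078 for Igfbp2, 0.019 for Spock2, 0.0093 for Cldn18, 0.0068 for Sftpb and 0.036 for Hopx. For airway secretory, detoxifying and ciliated cell genes the values were 0.00017 for Cbr2, 0.0011 for Cyp2f2, 0.0042 for Muc5b, 0.00038 for Ces1d, 0.029 for Cyp26b1, 0.0017 for Foxj1 and 0.019 for Dclk1. Matrix, adhesion and cytoskeleton genes had 1.1e-05 for Lama3, 0.023 for Itgb6, 0.0048 for Timp3, 0.044 for Tpm2, 0.042 for Vim, 0.048 for Cdh1, 0.00018 for Ccn1 and 0.0086 for Ankrd1. In lipid and carbon metabolism they were 3.2e-06 for Scd1, 0.034 for Fasn, 0.0015 for Pdk4 and 0.00039 for Scd2, and among signalling genes 0.00041 for Spry1, 0.0093 for Nkd1, 0.041 for Wnt7b, 0.014 for Jag1, 0.036 for Hey1 and 0.035 for Ereg. The remaining genes had 0.0067 for Aqp4, 0.011 for Oasl2, 0.02 for Dnajb9, 0.024 for Syt8, 0.024 for Herpud1 and 0.041 for Pecam1. DESeq2's likelihood ratio test also called 47 of the 55, and did not call Dbp, Ereg, Hey1, Muc5b, Nr1d1, Pecam1, Tpm2 or Wnt7b. In 33 of the 55, experiment C lay farthest from the others, which is near its share over all genes called (566 of 901). Each experiment has 1 isolation library, so an odd isolation library and a difference between experiments cannot be told apart.

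A single airlift library stood apart from the other 5, by its gap to the nearest on the log2(CPM + 1) scale, in 10 of the 204 genes; chance alone gives about 1 in 20. In the second airlift library of experiment B, Cldn4 was at 1244 CPM against 1482 to 1532 in the others, Pkm at 4901 against 5474 to 5833, Cdkn1a at 627 against 677 to 708, Nt5e at 372 against 318 to 333 and Clca1 at 0.306 against 0.0938 to 0.166. In the first library of B, Per1 was at 39.7 CPM against 34.4 to 35.3, and Itgb6 at 144 against 159 to 168. In experiment C, Ccno was at 2.67 CPM in the first library against 0.919 to 1.39, Wif1 at 0.469 in the first against 0 to 0.102, and Etv5 at 18 in the second against 20.8 to 22.3. The airlift and isolation groups overlapped for Cldn4 with that library and without it, for Cdkn1a only with it, and for none of the other 8 genes either way.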

How the results depend on the processing

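The number of genes called was 13810 and lay between 12816 and 14854 in every alternative but a minimum log2 fold change of 1, which called 4662 genes (1795 higher and 2867 lower). Library totals alone called 4299 genes lower in place of 6843, reversed 755 calls, and reversed 6 named genes, giving 0.48 for Actb, 0.33 for Cdh1, 0.28 for Krt8, 0.15 for Pcna, 0.13 for Pfkm and 0.45 for Sox2. Without the experiment term, that is without the replicate block, 13219 genes were called, 13182 of them also called with it. Leaving out 1 library gave 13168 to 13695 calls, and leaving out an experiment 12816 to 13249. With the airlift libraries of an experiment summed, 13147 were called. Of the 204 genes named with a value, 172 kept their direction and call in all 23 alternatives. Beside the minimum change, calls of Actb, Adm, Cdh1, Cldn4, Foxa2, Hk2, Krt5, Krt8, Pfkm, Scd2, Sox2 and Trp63 changed in at least 1 alternative. Library totals alone raised the median of each of the 57 lists by 0.48 to 0.50, turned the sign of the median in 7 (matrix proteases, TGF-beta and BMP, tight junctions, ribosomal proteins, amino acid transporters, NRF2 targets and cytokines), and turned the majority of calls in the same lists except matrix proteases and also in alveolar type 1 genes. Under the other alternatives, list medians moved by 0.5 or more in 6 cases: basal cells, from -0.63 to -0.09 without the isolation library of B and -0.10 without experiment B, matrix proteases from -0.09 to 0.50 in the same alternatives, and with halved counts mesenchyme from 0.68 to 1.19 and squamous genes from 2.16 to 1.34. The genes whose change differed between experiments numbered 901, 844 with library totals, 1592 with no filter and 577 by DESeq2; 534 were called by both tools. Without the filter on low counts Krt5 had an adjusted p of 1.5e-98 (edgeR), far below its value of 0.033 with the filter, so the p-values of that fit for single genes were not used. For the promoters, searching the whole 300 bases in place of 250 raised the share of all genes with ACGTG from 18.5% to 21.8% and that of the glycolysis genes from 10 to 13 of 20; the hypoxia-response genes stayed at 12 of 15.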

Other observations

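Several pairs of genes with related products moved in opposite directions, as noted after their values were seen. Of the desaturases, Scd1 fell by 2.65 ± 0.19 while Scd2 measured 949, 809.7 and 684 CPM at isolation and 933 to 1151 CPM (median 1004) at airlift, and rose by 0.34 ± 0.10. The groups overlapped for Scd2, and its change of 0.37 without experiment B did not pass the test. Of the claudins, Cldn1 fell by 3.91 ± 0.10 while Cldn6, known from fetal epithelia, measured 1.25, 1.21 and 1.31 CPM at isolation and 6.53 to 9.8 CPM (median 7.74) at airlift, and rose by 2.66 ± 0.15. Of the cornified envelope precursors, Sprr1a rose by 3.34 ± 0.26 and Ivl fell by 4.44 ± 0.16. Of the tissue inhibitors of metalloproteases, Timp1 rose by 4.23 ± 0.20 and Timp3 fell by 2.61 ± 0.08. Scgb1a1 and Scgb3a2, both secretoglobins, fell together but by 2.79 ± 0.07 and 8.11 ± 0.20.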
